A study of Homo sapiens with 11 samples.

Results

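The small modifiers SUMO-2 and SUMO-3 were mapped on chromatin by immunoprecipitation with 1 antibody that recognises both, followed by sequencing (SUMO-2/3 ChIP-seq), in 2 human embryonic kidney (HEK293) lines that differ in their glucocorticoid receptor (GR) transgene. The wild-type line stably expressed the normal receptor and the 3KR line a SUMOylation-defective GR in which the acceptor lysines are replaced by arginine. Both were made with the Flp-In system, which places a transgene at a prepared genomic site, and each stands for 1 cell population. All cells were kept for 72 h in medium stripped of steroids and then given 100 nM dexamethasone, a synthetic glucocorticoid, for 1 h. No SUMO-2/3 library without dexamethasone or from the control line without a GR transgene was analysed here, so the comparison is of hormone-treated lines only. The GR antibody gave 1016 listed sites in that control line, so cells without the transgene were not free of GR signal.

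Each line had 2 SUMO-2/3 libraries, called duplicates below, from the 11 samples of the series. The deposited lists held 12109 wild-type and 7784 3KR sites, together 19893 of 51024 listed in all 5 groups with a list. All SUMO-2/3 sites of both lines were taken as members, and a site of one line was matched to a site of the other when they shared at least 1 bp. The duplicates of a line have the same site positions, while each library has its own tag count (reads counted in its own peak), peak length and summit (highest point).

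SUMO-2 and SUMO-3 are nearly identical ubiquitin-like proteins that a small set of enzymes couples to lysines of other proteins and that proteases remove again. Many substrates are transcription factors, co-regulators, histone-modifying complexes and components of RNA polymerases, and on chromatin the modification is best known for restraining transcription. GR is itself a substrate, with acceptor lysines in its N-terminal region and in its ligand-binding domain. A SUMO-2/3 site in ChIP-seq is the sum of all modified proteins at that place, whichever protein carries the modifier.

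The libraries differed in tags within each line. Tags in listed peaks, each peak counted once, summed to 2025910 and 3377919 in wild-type libraries 1 and 2 and to 1109129 and 2279734 in 3KR libraries 1 and 2. Library 2 thus had more tags in listed peaks than library 1 in both lines, and 3KR library 1 had the fewest. Median tags per site were 127, 210, 106 and 210 in that order. Median peak lengths were 1195, 1273, 1178.5 and 1204 bp, and the summit lay at the middle of the peak at the median site in each library. No listed SUMO-2/3 site had fewer than 51 tags, a fold enrichment under 8.01 or a false discovery rate (FDR) above 9.96%.

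Most 3KR sites lay on a wild-type site, and fewer of the wild-type sites lay on a 3KR site. In the 3KR list 5811 sites (74.7%, exact 95% interval 73.7 to 75.6) touched a wild-type site, and in the wild-type list 5780 sites (47.7%, 46.8 to 48.6) touched a 3KR site. This left 6329 wild-type-only and 1973 3KR-only sites. Intervals cover counting error only, and the length of a list has no replicate error because each line has 1 list. Of the shared sites 5651 had exactly 1 partner on both sides, and these matched sites carry the comparisons of tags, length and summit. Another 66 wild-type sites touched up to 3 3KR sites, and 36 3KR sites touched 2 wild-type sites.

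The 2 lists were not of the same stringency by the authors' FDR. An FDR above 1% was listed for 49.4% and 46.5% of wild-type sites in libraries 1 and 2, but for 1 site (0.0128%) and 2.74% of 3KR sites. With sites kept only where the FDR was under 1% in both libraries, the wild-type list fell to 5227 sites and the 3KR list to 7566, so that the 3KR list became the longer one. The shares then exchanged places as well. Shared sites were 3676 (70.3%) of the wild-type and 3717 (49.1%) of the 3KR list. With more than 100 tags required in both libraries instead, 8020 wild-type and 4135 3KR sites remained, and 39.2% and 76.3% of them were shared. Which line had more SUMO-2/3 sites therefore depended on the column used to limit the lists.

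Sites listed in a single line had fewer tags than shared sites of the same list. At shared wild-type sites the median was 166 tags in library 1 and 268 in library 2, against 103 and 166 at wild-type-only sites. At shared 3KR sites the medians were 110 and 220 tags, against 93 and 178 at 3KR-only sites. The gap in tags was wider in the wild-type list. In fold enrichment the gaps were closer to each other, with medians of 14.0 and 19.5 at shared and 10.0 and 14.0 at line-only wild-type sites. The corresponding 3KR medians were 11.8 and 17.5, and 9.25 and 12.4. Wild-type peaks were also shorter at line-only sites, with medians of 1106 and 1159 bp against 1310.5 and 1409 bp at shared sites. For 3KR peaks the medians were 1165 and 1187 bp against 1183 and 1207 bp.

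**Figure D1:**
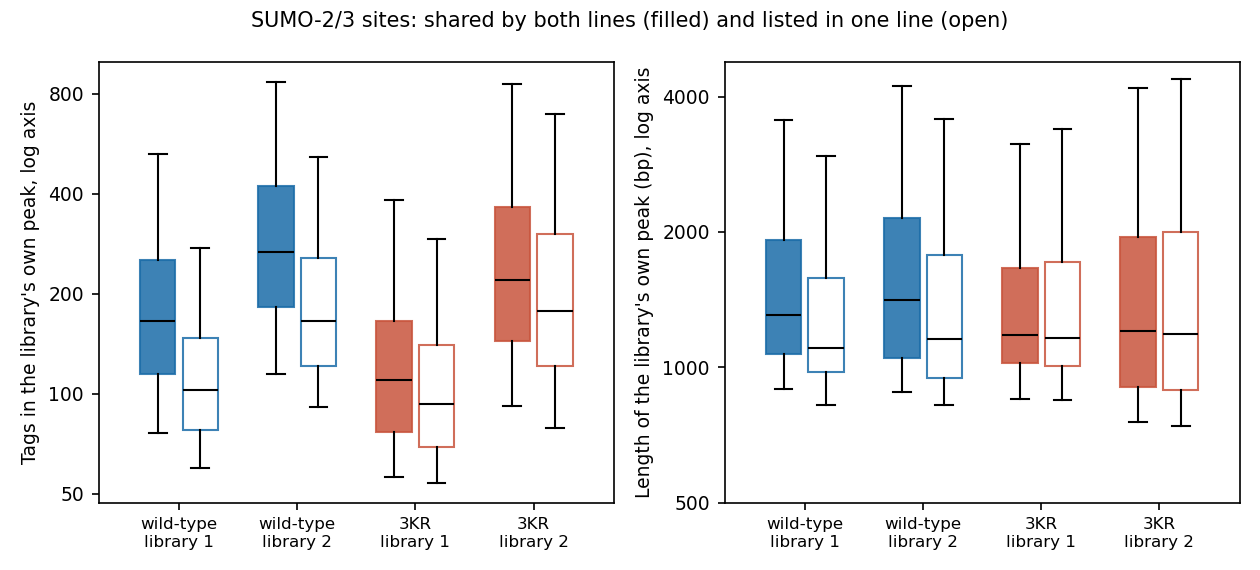
Tags (left) and lengths in bp (right) of each library's own peak, on log axes, at sites shared by both lines (filled) and listed in 1 line (open). Boxes span the quartiles with the median as a line, and whiskers reach the 5th and 95th percentiles. Line-only sites have lower medians of tags in all 4 libraries, and lengths differ mainly in the wild-type libraries.

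Wider wild-type sites were more often shared. The share of wild-type sites touching a 3KR site was 34.0% under 1 kb, 54.7% from 1 to 2 kb, 61.0% from 2 to 5 kb and 69.9% at 5 kb and more (95% interval 59.5 to 79.0, 93 sites). Among 3KR sites the shares in the same classes were 73.0%, 76.5%, 74.4% and 76.5%, with no such order. Line-only sites rarely had a listed site of the other line close by. The nearest was at a median distance of 67.3 kb for wild-type-only and 60.7 kb for 3KR-only sites. Within 1 kb, 136 (2.15%) and 56 (2.84%) of them had one. Signal of the other line below the limits of its list cannot be seen here.

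At matched sites the raw tag ratio between lines differed from pair to pair of libraries. Total sequencing depth is not given, so depth and enrichment cannot be told apart in these ratios. The median ratio of wild-type over 3KR tags was 1.43 for the 2 first libraries, 1.17 for the 2 second libraries, 2.30 for wild-type library 2 over 3KR library 1 and 0.738 for wild-type library 1 over 3KR library 2. The median ratio of library 2 over library 1 was 1.58 for wild-type and 1.93 for 3KR duplicates. The direction between lines thus changed with the libraries that were paired, and duplicates differed by as much as most of these pairs. No genome-wide change in tags was read from these lists.

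Chromosome medians of the tag ratio differed between the lines. With each pair of libraries centred on its genome median, the chromosome medians of the log2 ratio of wild-type over 3KR tags had an SD of 0.289 over 23 chromosomes, against 0.0478 between wild-type and 0.0585 between 3KR duplicates. In 21 of the 23 all 4 pairs of libraries had one sign, 10 with more tags in the wild-type and 11 with more in the 3KR line. These pairs share libraries and are not independent. Lowest were chromosome 18 at -0.56 and chromosome 6 at -0.51, followed by chromosomes 2 at -0.28 and 4 at -0.27. Highest were chromosomes 21 at 0.57, 14 at 0.46, 3 at 0.39 and 20 at 0.35. Chromosome 21 rested on 61 matched sites, and its 4 pairs ran from 0.36 to 0.64. Chromosome 18 rested on 68, with pairs from -0.63 to -0.56. The shift was not even along a chromosome. In windows of 10 Mb with at least 20 matched sites, also centred on the genome median, chromosome 19 stood at 0.63 from 0 to 10 Mb. From 50 to 60 Mb it stood at -0.023. On chromosome 14 such windows ran from 0.14 at 30 to 40 Mb to 0.92 at 90 to 100 Mb.

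**Figure D2:**
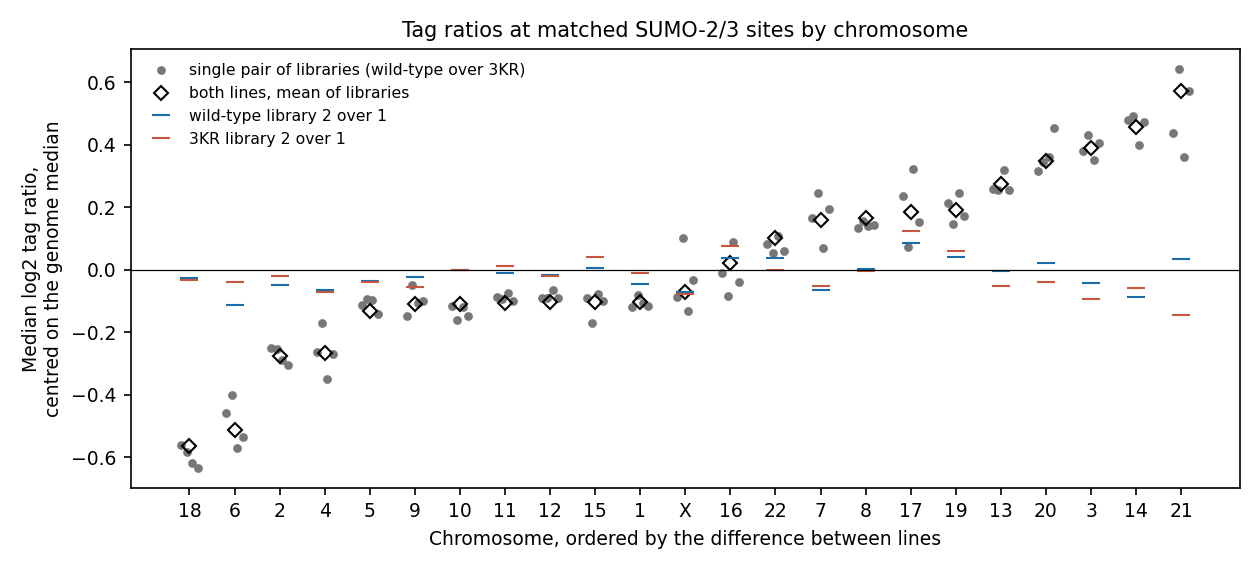
Median log2 tag ratio per chromosome at matched SUMO-2/3 sites, centred on the genome median, for each of the 4 pairs of a wild-type and a 3KR library (grey points), for the line means (diamonds) and for duplicates of a line (bars). The line values span 1.14 on the log2 scale, from chromosome 18 to chromosome 21, while the duplicates stay near 0.

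The number of listed sites moved with these medians, counted on the full lists of 12109 wild-type and 7784 3KR sites. Chromosome 18 had 90 wild-type and 181 3KR sites, a ratio of 0.497, and chromosome 6 had 465 and 517. Chromosome 21 had 216 against 71, chromosome 20 478 against 154 (a ratio of 3.10), and chromosome 14 759 against 284. In tags per base of the peak the chromosome medians spread less, with an SD of 0.105, and chromosome 18 stood at -0.26 and chromosome 20 at 0.20. All local ratios below are therefore log2 wild-type over 3KR with each chromosome's median removed for each library, which lowered the SD of the ratio over sites from 0.512 to 0.442.

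The matched sites with the most SUMO-2/3 tags carried no GR. By mean rank of tags over the 4 libraries, 4 of the first 5 matched sites lay on chromosome 6 between 26 and 29 Mb and 1 on chromosome 17 near 8 Mb. Both regions are known for clusters of tRNA genes, the chromosome 6 one beside the main histone gene cluster. On which genes these sites lie was not analysed here, and how reads from repeated genes were placed is not given in the sources used here. The ranking left out sites without a single partner on both sides. Among those were places 1 and 2 of the wild-type list by tags. They were chr17:8122584-8128587 with 2498 and 4892 tags and chr17:8020753-8032273 with 3015 and 4089. Place 1 of the 3KR list, chr17:8122984-8130940 with 3001 and 4240 tags, was left out too. At chr6:26552934-26557870 tags were 2019 and 2773 in the wild-type and 2198 and 2994 in the 3KR libraries. At chr6:27635213-27642606 they were 1926 and 2704 against 2135 and 3220, and at chr17:8088382-8094544 2157 and 3068 against 1398 and 2523. The unscaled tags of the lines overlapped at all 5 sites, with chromosome-centred log2 ratios from -0.14 to -0.0095. Centred on the genome median instead, the 4 chromosome 6 sites ran from -0.59 to -0.50 and the chromosome 17 site stood at 0.073. The chromosome 6 median taken out by the centring was -0.51. Of the 323 matched sites behind it, 109 lay from 20 to 30 Mb, the window of these 4 sites.

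The strongest sites of each list were also counted by whole chromosome. Among all 12109 wild-type and 7784 3KR sites, 465 and 517 lay on chromosome 6. Chromosome 17 had 857 and 468, and chromosome 19 had 890 and 417. Of the 50 sites with the best rank of tags in each list, 10 of the wild-type and 22 of the 3KR list lay on chromosome 6. On chromosome 17 lay 10 and 5, on chromosome 19 lay 8 and 6, and 45 of each 50 were shared. GR was listed at 14 and 12 of the 50. Of the first 20 alone, 19 and 17 were shared, and GR was listed at 3 of each. From 27 to 28 Mb of chromosome 6 there were 45 wild-type and 54 3KR sites, 0 of the former and 11 of the latter in a single line, and none of the matched sites carried GR. From 28 to 29 Mb both lists had 43. The median centred log2 ratio was -0.22 and -0.21 in these 2 megabases, and -0.028 and -0.088 per base.

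Duplicates resembled each other more than the lines did, but not by much. The SD of centred log2 tag ratios over the 5651 matched sites was 0.376 between wild-type duplicates and 0.462 between 3KR duplicates. Between a wild-type and a 3KR library it was 0.507, 0.557, 0.566 and 0.499. Spearman's rho of tags over these sites was 0.901 and 0.857 within lines and from 0.702 to 0.797 between them. Sites of a library share its depth and their own width and are not independent replicates.

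Tags followed peak length, and peaks tended to be longer in the wild-type line. Median lengths at matched sites were 1301 and 1388 bp in the wild-type and 1177 and 1202 bp in the 3KR libraries. Both wild-type libraries thus lay above both 3KR libraries, and the exact two-sided permutation p was 0.333, the smallest that 2 against 2 libraries allow. The median ratio of length was 1.09, with quartiles of 0.962 and 1.27. Both wild-type peaks were longer than both 3KR peaks at 1946 sites (34.4%) and shorter at 552 (9.77%). Over sites, the log2 length ratio and the centred log2 tag ratio had a Pearson correlation of 0.694, where both depend on the same peak borders. For tags per base it was -0.115. In tags per base the SD was 0.256 and 0.285 between duplicates and ran from 0.320 to 0.367 between lines.

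**Figure D3:**
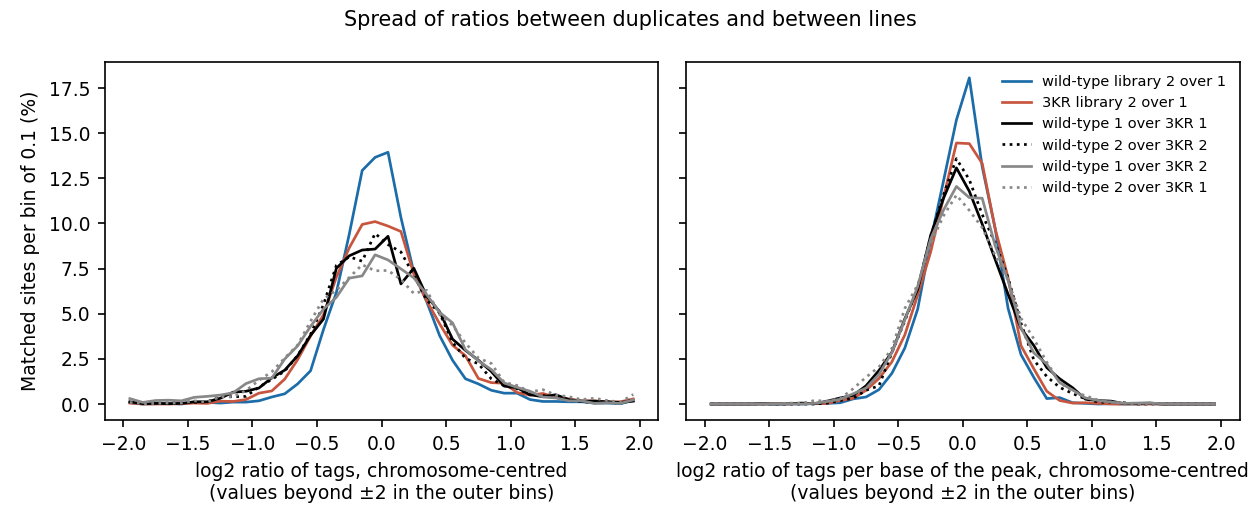
Share of the 5651 matched sites (percent per bin of 0.1) by chromosome-centred log2 ratio of tags (left) and of tags per base of the peak (right). Blue and red lines show duplicates of a line, black and grey lines the 4 pairs of a wild-type and a 3KR library, which are broader on both scales with SDs of 0.499 to 0.566 on the left and 0.320 to 0.367 on the right.

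No single matched site passed the test on chromosome-centred tags. With edgeR's quasi-likelihood test, 0 of 5651 sites (0.0%) had a Benjamini-Hochberg adjusted p under 0.05, and the smallest adjusted p was 0.0826. Before adjustment 1079 sites (19.1%) had a p under 0.05, 565 (10.0%) with more wild-type and 514 (9.1%) with more 3KR tags. The libraries of the lines did not overlap at 2877 sites (50.9%), 1433 (25.4%) with both wild-type libraries on top and 1444 (25.6%) with both 3KR libraries on top. With 2 against 2 interchangeable libraries, such a split has a probability of 0.333 at a site without any difference. The same test on tags per base called 126 sites (2.23%), 85 higher in the wild-type line (1.5%) and 41 higher in the 3KR line (0.726%). DESeq2 on tags called 435 (7.7%), 255 higher in the wild-type line (4.51%) and 180 higher in the 3KR line (3.19%), and limma called 0, with 1046 sites at an unadjusted p under 0.05. On the 2165 matched sites that cover at least 80% of every library's own peak, a selection made after seeing the data, edgeR called 555 (25.6%), 302 higher in the wild-type line (13.9%) and 253 higher in the 3KR line (11.7%). In that fit the estimated spread was fully shared over sites, and how many differ there beyond site-specific spread was not tested. Calls thus depended on the tool, the scale and the sites, and the median standard error of a site's log2 ratio was 0.217 with edgeR on tags. On tags simulated for these sites and libraries, the edgeR fit on tags recovered 56 of 100 sites changed 2-fold and 100 of 100 changed 4-fold. The simulated tags had the same spread at every site, so recovery under site-specific spread was not tested.

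Sites were named from the calls on tags per base, a choice made after the fit on tags had called none. Of the 5651 matched sites, 80 were called with both wild-type libraries on top on both scales. Another 37 were called with both 3KR libraries on top on both scales. Given below are the 6 with the largest difference in tags per base per direction, as a description. The log2 ratios quoted for them are on tags unless marked as per base, and some are small on tags. On chromosome-centred tags edgeR's adjusted p lay between 0.0826 and 0.670, so none of the 12 passed, and per base it lay between 0.00288 and 0.0102. On tags 9 of the 12 passed with DESeq2, and 3 passed with edgeR and a genome-wide offset, those at chr2:70888370-70889345, chr16:89018547-89020027 and chr7:141707953-141708811 (adjusted p = 0.0491 for each).

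Higher in the wild-type line were 2 sites of similar size on chromosomes 17 and 1 that carried no listed GR peak in either line. At chr17:7431858-7432786 the wild-type libraries had 257 and 269 tags and the 3KR libraries 62 and 78, a centred log2 ratio of 1.32, or 1.21 per base (edgeR adjusted p = 0.00288 per base). At chr1:109996803-109997900 the wild-type libraries had 222 and 248 tags and the 3KR libraries 73 and 83, a log2 ratio of 1.31. At both sites the wild-type counts were above the 3KR counts even without scaling, although 3KR library 2 had more tags per matched site than wild-type library 1.

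The other sites higher in the wild-type line carried GR in both lines. At chr2:70888370-70889345 tags were 177 and 276 in the wild-type and 55 and 104 in the 3KR libraries, a log2 ratio of 1.44. GR at the same place had 195 and 299 tags in the wild-type and 344 and 297 in the 3KR libraries. Unscaled SUMO-2/3 counts did not overlap between lines there, whereas unscaled GR counts did, by a few tags. At chr16:89018547-89020027 SUMO-2/3 tags were 316 and 522 against 87 and 160, a log2 ratio of 1.40, with 266 and 610 GR tags in the wild-type and 307 and 348 in the 3KR libraries. At chr7:156695883-156696928 SUMO-2/3 tags were 267 and 323 against 68 and 128, a log2 ratio of 1.10. GR tags there were 272 and 407 against 336 and 331. Unscaled, the GR counts of the lines overlapped at both of these sites while the SUMO-2/3 counts did not. The chromosome 7 site lies between 150 and 160 Mb, where 74 wild-type and 14 3KR sites were listed. That window had too few matched sites for centring in 10 Mb windows, so only the chromosome median was removed from the ratio of 1.10. Whether this ratio differs from that of the surrounding region was not tested. The GR counts at named sites are neither scaled nor centred, and a difference in GR between lines was not tested there.

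The last of the 6 was of another kind. At chr6:44622705-44623921 tags were 310 and 472 in the wild-type and 262 and 508 in the 3KR libraries, which overlap before scaling, with a log2 ratio of 0.18 after chromosome centring and of -0.31 in edgeR with a genome-wide offset. Its peaks were 1217 and 1253 bp long in the wild-type and 3217 and 2634 bp in the 3KR libraries, and the difference was larger in tags per base (log2 ratio 1.18, edgeR adjusted p = 0.00521).

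Higher in the 3KR line was first a site with GR in both lines. At chr7:141707953-141708811 SUMO-2/3 tags were 101 and 136 in the wild-type and 177 and 290 in the 3KR libraries, a log2 ratio of -1.50. GR tags were 130 and 189 against 542 and 453. Both antibodies thus had higher unscaled counts in both 3KR libraries at this site.

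The other 5 had no listed GR peak in either line. At chr13:111617461-111618467 tags were 99 and 131 against 139 and 175 (log2 ratio -1.13), at chr8:117081195-117082031 90 and 137 against 152 and 220 (-1.21), and at chr7:18077715-18078652 105 and 146 against 150 and 241 (-1.17). At these 3 sites both 3KR libraries were above both wild-type libraries even in unscaled tags. At chr21:43429897-43430910 tags were 71 and 220 against 82 and 236, which overlap before scaling and gave a log2 ratio of -1.06 on a chromosome whose median lay on the wild-type side. In the edgeR fit its ratio ran from -1.58 to -0.59 when 1 library was left out, and was -0.48 with a genome-wide offset. At chr1:221123727-221124787 they were 140 and 218 against 196 and 242, with overlap before scaling and a log2 ratio of -0.60, which ran from -0.92 to -0.28 in the edgeR fit when 1 library was left out.

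**Figure D4:**
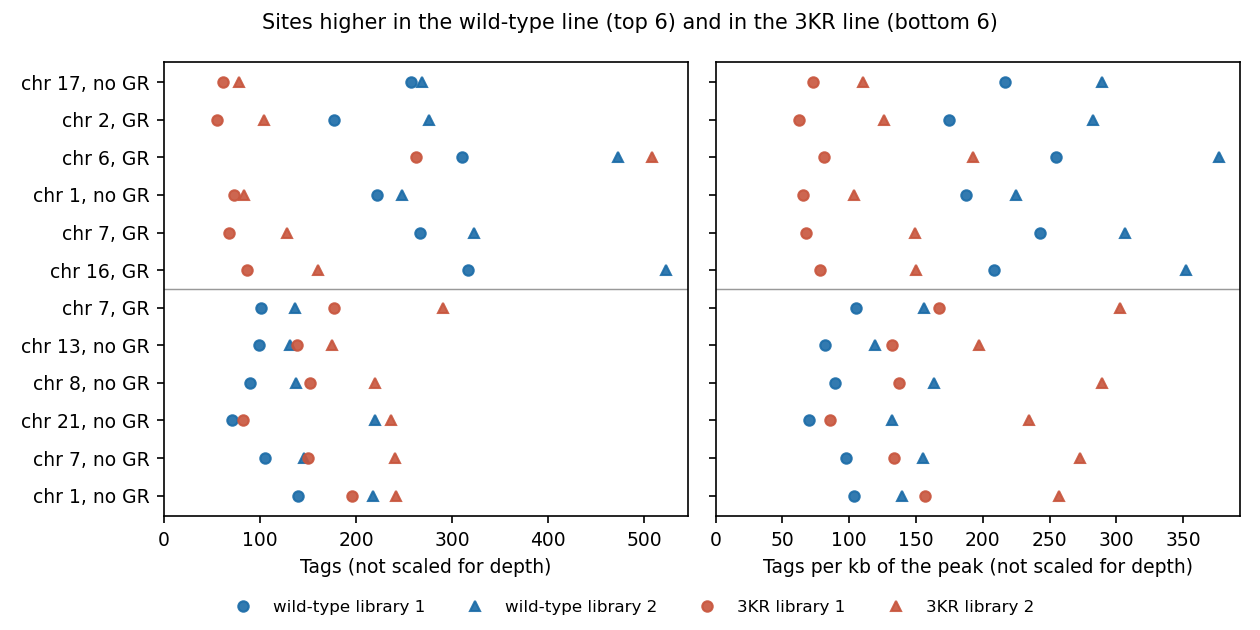
Tags (left) and tags per kb of the peak (right), not scaled for depth, in the 4 libraries at 6 sites per direction. These have the largest difference in tags per base among sites called on that scale, and are labelled by chromosome and by whether GR was listed there. At 5 of the top 6 sites both wild-type libraries (blue) lie to the right of both 3KR libraries (red) in tags, and at the chromosome 6 site the unscaled tags of the lines overlap.

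Elsewhere dense stretches differed in number. On chromosome 19 from 3 to 4 Mb there were 43 wild-type and 4 3KR sites, and from 5 to 6 Mb 43 and 11, with 0 3KR-only sites in both. In windows of 10 Mb with at least 40 sites in both lists together, 27 of 186 held more 3KR than wild-type sites. Among these were 0 to 10 Mb of chromosome 18, with 14 against 36, and 170 to 180 Mb of chromosome 2, with 14 against 35. At the other end, 150 to 160 Mb of chromosome 7 held 74 wild-type and 14 3KR sites, and 30 to 40 Mb of chromosome 21 held 124 and 29.

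Medians of windows of 10 Mb were also taken after the chromosome median was removed. In 109 windows with at least 20 matched sites, all 4 pairs of libraries had one sign of the median log2 ratio in 73, 46 above and 27 below 0. The 4 pairs come from 4 libraries, so their signs are not independent. The highest medians were 0.46 at 90 to 100 Mb of chromosome 14, 0.44 at 150 to 160 Mb of chromosome 6 and 0.42 at 0 to 10 Mb of chromosome 19. The lowest were -0.42 at 40 to 50 Mb of chromosome 21 and -0.33 at 20 to 30 Mb of chromosome 10. Of the 61 matched sites of chromosome 21, 29 lay in this window and 29 in the one from 30 to 40 Mb, so its median sets the sign of both. Without chromosome centring the 40 to 50 Mb window of chromosome 21 stood at 0.10 and the 150 to 160 Mb window of chromosome 6 at -0.053, each with the opposite sign. Centred and per base, the medians of the 5 windows were 0.18, 0.072, 0.16, -0.00085 and -0.050, all closer to 0.

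The largest sites of a single line were long. Among wild-type-only sites the first by tags was chr8:37550065-37562258, 12194 bp wide and the widest of that list, with 1234 and 2513 tags and a GR site on it. The second was chr3:61788214-61797514 with 1040 and 2426 tags, also with GR. Among 3KR-only sites the first was chr1:224019219-224035043, 15825 bp wide and at place 4 of its whole list by tags, with 1567 and 3542 tags, and the second chr1:234733211-234744575 with 969 and 3900, both with GR in the 3KR line. Their density was ordinary, 99.0 and 183 tags per kb at the first 3KR-only site, against medians of 81.4 and 158 over its list. These sites ranked high by width: by fold enrichment the 4 stood at places 2479 and 5457 of the wild-type and 1047 and 4124 of the 3KR list.

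GR was about as frequent at line-only as at shared SUMO-2/3 sites of the same line. A GR site of the same line touched 2012 (34.8%) of the shared and 2141 (33.8%) of the wild-type-only sites. In the 3KR line it touched 2174 (37.4%) of the shared and 751 (38.1%) of the 3KR-only sites. At 3KR-only SUMO-2/3 sites a GR site of the wild-type line touched 491 (24.9%), and at shared 3KR sites 2018 (34.7%). At wild-type-only sites the GR lists of both lines gave near equal shares, 33.8% and 33.6%.

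The SUMO-2/3 ratio between lines was described by the GR lists at each matched site. At the 1914 matched sites with GR in both lines, the median centred log2 ratio of SUMO-2/3 was 0.088, with the 4 pairs of libraries between 0.035 and 0.14, and 0.061 per base. At the 3550 sites without GR it was -0.038, between -0.066 and -0.013, and -0.039 per base. At the 162 sites with GR in the 3KR line only it was -0.19, between -0.25 and -0.14, and -0.12 per base. At the 25 with GR in the wild-type line only it was 0.20, with pairs from -0.0055 to 0.46, and 0.035 per base. The medians of sites with GR in either line and of sites without GR differed by 0.11 on the log2 scale. Without wild-type library 2 the difference was 0.058 and without 3KR library 1 it was 0.059, and with centring in 10 Mb windows it was 0.096.

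Counts of sites without overlap between the lines also differed between these classes, though not all of them. Both wild-type libraries were on top at 715 (37.4%) of the sites with GR in both lines, against 25.4% of all matched sites. Both 3KR libraries were on top at 465 (24.3%) of them, near the 25.6% of all matched sites. At sites with GR in the 3KR line only the 2 counts were 24 (14.8%) and 66 (40.7%). Without GR they were 683 (19.2%) and 908 (25.6%). Of the sites called on tags per base, 61 of the 85 higher in the wild-type line and 11 of the 41 higher in the 3KR line had GR in both lines, a class that holds 33.9% of all matched sites. Within it 3.19% of sites were called higher in the wild-type line and 0.575% higher with 3KR, against 1.5% and 0.726% of all matched sites. Classes of sites are not replicates, so these shares carry no test.

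**Figure D5:**
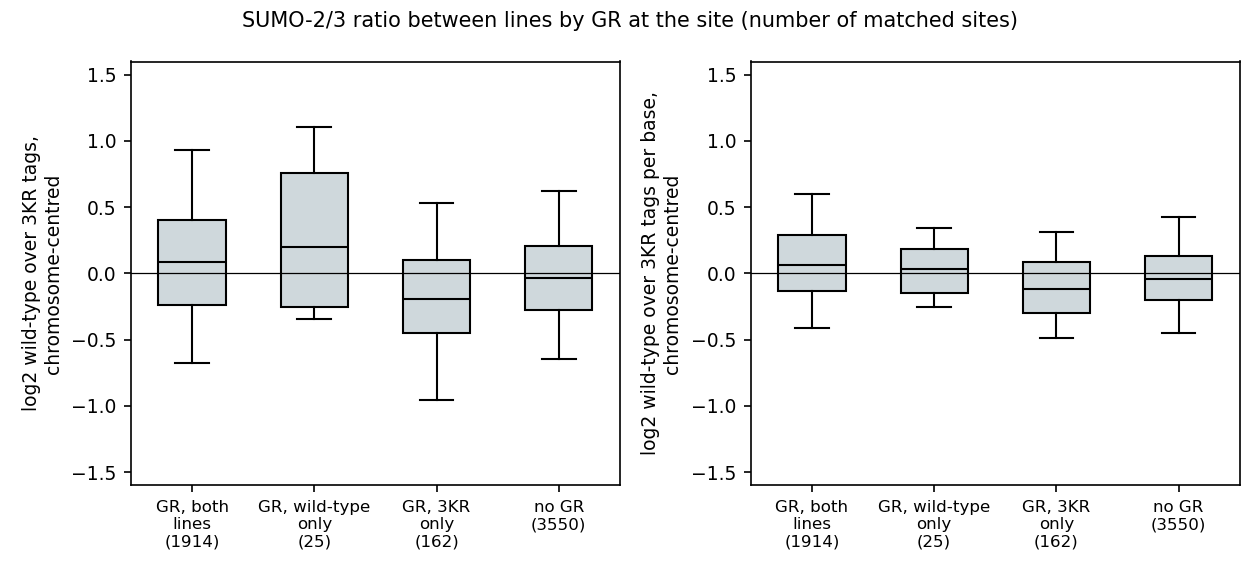
Chromosome-centred log2 ratio of wild-type over 3KR SUMO-2/3 tags (left) and tags per base (right) at matched sites by the lines in which GR was listed there, with the number of sites. Boxes span the quartiles and whiskers the 5th to 95th percentiles. Medians run from -0.19 with GR in the 3KR line only to 0.20 with GR in the wild-type line only on the left, and the boxes of all classes include 0 on both scales.

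Where both antibodies could be compared between lines, their local ratios moved together. At 1860 sites matched for SUMO-2/3 and for GR, the centred log2 ratio of SUMO-2/3 had a Pearson correlation of 0.535 and Spearman's rho of 0.527 with that of GR. Per base these were 0.313 and 0.309. In 5 equal groups of sites by GR ratio, 372 in each, the median SUMO-2/3 log2 ratio was -0.29, -0.059, 0.13, 0.26 and 0.43 from the lowest to the highest. Per base it was -0.078, 0.013, 0.085, 0.14 and 0.19. The points share the lines and the regional shifts above, while the GR and SUMO-2/3 libraries are separate. With both ratios centred in 10 Mb windows, which left 1127 sites, Pearson's correlation was 0.463 and rho 0.428, and 0.271 and 0.278 per base.

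The summits of matched sites stayed in place. A summit has a genome position in these lists only where the library's own peak equals the listed site, which held for 25.0%, 26.6%, 21.4% and 34.9% of sites in the 4 libraries. Over 1676 comparisons of a wild-type with a 3KR summit, the median distance was 18 bp and 86.2% were within 50 bp. The medians of the 4 pairs of libraries lay between 14 and 23 bp, and 39 comparisons (2.33%) exceeded 200 bp. Distances between duplicates could not be measured, since at 0 sites did the peaks of both duplicates equal the site.

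SUMO-2/3 summits lay close to GR summits where both were known. The median distance was 19 bp at 1202 sites of the wild-type line, with 93.7% within 100 bp, and 24 bp at 871 sites of the 3KR line, with 89.0% within 100 bp. Distances rest on the sites where both positions were known, and the difference of 5 bp between the lines was not tested.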

How the data were processed

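The submitters' processing notes name CASAVA, Bowtie 0.12.9 and hg19. The peak caller is not given in the sources used here. The deposited lists give, per the file headers, whole tag counts, lengths and summits per peak, a p column read as a score and not used further, a fold ratio and an FDR in percent. Sites were matched by an overlap of 1 bp. Pairs with 1 partner on both sides were fitted with edgeR 4.0.16 (quasi-likelihood, two-sided) on tags, with an offset per library and chromosome and no replicate block, and p-values were adjusted over 5651 sites. DESeq2 1.42.0, limma 3.58.1 and the other alternatives are in the closing section. Ratios outside the fits are differences of mean log2 tags, centred on each chromosome's median. The fit was tested on simulated data with the same spread at every site, where 8 unchanged sites were also called.

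Members, lists and alternatives were chosen with earlier results of these data known. Named are the 5 matched sites with the best mean rank of tags, the strongest sites left out of that ranking, 6 called sites per direction, and the strongest line-only and the widest sites. The labels say only that duplicates are biological, so p-values measure the spread between these libraries. The rule for called sites named none on tags and was applied to tags per base. No annotation or sequence of hg19 was used here. Total sequencing depth is not given in the sources used here.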

Additional observations from a re-analysis of the deposited data

How the results depend on the processing

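The count of called sites was 0 of 5651 with edgeR on chromosome-centred tags. Of the same 5651 it was 63 with a genome-wide offset, 56 with TMM factors, 126 on tags per base and 435 with DESeq2. With at least 100 tags in every library it was 1 of 3080. It ran from 0 to 1 when a library was left out, where the lone library is assumed to vary like the other line's. Chosen after seeing the data, fits without sites that share a peak called 24 of 5471, and fits of 2165 sites covering at least 80% of every peak called 555. With 10 Mb centring, all matched pairs, 50% reciprocal overlap, summits within 200 bp and limma it stayed 0. The cause of these differences was not tested. Of the calls on tags per base, 83 were also called by DESeq2 on tags.

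The replicate numbers are shared by the lines but nothing ties equal numbers to a day or batch. Differences between duplicates correlated at 0.357 between the lines over sites. With a replicate block in edgeR 650 of 5651 sites were called, 362 higher in the wild-type line and 288 higher with 3KR. Of the 12 sites named by difference, 10 passed.

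Shared sites fell to 3143 wild-type and 3156 3KR sites with more than 100 tags, and to 3676 and 3717 with an FDR under 1%. The SD between duplicates was 0.256 and 0.285 per base. The SD of chromosome medians was 0.105 per base, 0.176 on fold enrichment, 0.272 with first and 0.305 with second libraries alone. The log2 gap from line-only to shared sites, 0.69 (wild-type) and 0.27 (3KR) on tags, was 0.48 and 0.42 on fold enrichment. The difference between sites with and without GR kept its direction in all 9 alternatives, among which centring in 10 Mb windows and the 80% cover of every peak were chosen after seeing the data.

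Signs turned at 6 named sites with log2 ratios of at most 0.18 in size. At the strongest sites the ratio became 0.17 (chr6:26552934-26557870), 0.087 (chr6:27635213-27642606), 0.077 (chr6:28906982-28913043) and 0.072 (chr6:26327258-26332294) with 10 Mb centring, 0.050 at the first with at least 100 tags, and 0.074 and 0.084 at chr17:8088382-8094544 with the genome-wide offset and TMM. Leaving out 1 library gave ranges of -0.24 to 0.22, -0.25 to 0.067, -0.32 to 0.12, -0.32 to 0.11 and -0.28 to 0.0036 at these 5 in the same order. At chr6:44622705-44623921 the ratio on tags was -0.31 and -0.30 with the genome-wide offset and TMM. Sites with fewer than 51 tags are not in the lists, so absence from a list is not absence of signal.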
